A study of Homo sapiens with 6 samples.

Results

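The 45 genes described here encode ATP-dependent chromatin remodelers and proteins with an AT-rich interaction domain (ARID). They are the protein-coding genes whose symbols belong to the SMARC, ARID, CHD, INO80 and BAZ families, together with PBRM1, BPTF, ACTL6A and ACTL6B, out of 60179 gene features. They were picked out by symbol, with earlier results of these data known, and 44 of them passed the filter on low counts. The exception was ARID3C, which lay between 0.207 and 0.832 CPM (counts scaled to a common library size) in the 6 libraries.

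The libraries measured polyadenylated RNA of HEK293T cells, a human embryonic kidney line, carrying a TET2 enzyme that light switches on. In all 3 groups the cells were co-transfected with the plasmids pShP2419 and pStH1169 and grown for 48 h with 0.1 mM of a photocaged serine. The group called caged 0 h received no light, and the groups uncaged 4 h and uncaged 8 h were exposed to 365 nm light for 3 min and collected after that time. Each group holds 2 libraries made from 500000 sorted cells each. A group with light but no enzyme is not part of these data, so light, washing, time in medium and active enzyme cannot be told apart. As for the replicates, nothing in the labels says whether the 2 libraries of a group came from separate cultures. If they did not, the p-values measure only technical spread.

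Chromatin remodelers use ATP to slide, eject or exchange nucleosomes. SWI/SNF complexes open chromatin at enhancers and promoters, ISWI complexes space nucleosomes, CHD proteins include the ATPases of the NuRD deacetylase complex and enzymes that work behind RNA polymerase, and INO80 acts on nucleosomes that carry the variant histone H2A.Z. TET2 oxidises 5-methylcytosine, the methylated base found mostly at CG dinucleotides, and some ARID proteins bind DNA or belong to histone deacetylase complexes.

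The libraries held 14903621 to 17670258 estimated counts in genes, so that 3 counts, the most that a count of 0 allows, were 0.170 to 0.201 CPM (counting error only). Plasmid sequences took 11.5% to 11.8% of all counts in the caged libraries and 14.8% to 15.5% in the uncaged ones, and the part of this difference in the results was not tested. All 5 renal and neuronal genes used to check the line were detected, with a summed level of 147 to 149 CPM in caged 0 h, 141 to 146 CPM in uncaged 4 h and 125 to 133 CPM in uncaged 8 h. Of the markers of other cells, CD3E was at 0 in all libraries, PTPRC reached at most 0.0663 CPM, and the summed fibroblast list lay between 17.1 and 19.9 CPM over the 3 groups, nearly all of it COL1A1. In these bulk libraries, fewer cells that make an mRNA and less of it per cell cannot be told apart.

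At 4 h against the caged libraries, 5 of the 44 tested members rose and 4 fell by edgeR's quasi-likelihood test with an adjusted p (Benjamini-Hochberg over 17449 features) under 0.05. Among all tested features 6.16% were higher and 3.56% lower, and among protein-coding features of at least 10 CPM the shares were 8.97% and 4.08%; the members stood at 11.4% and 9.09%. At 8 h, 13 members rose and 5 fell, which is 29.5% and 11.4%. The shares of all tested features were 14.9% and 13.2%, and those of the protein-coding features of at least 10 CPM were 20.6% and 16.4%. The share of lower members was thus not above the background. Between 4 h and 8 h, 6 members rose and 2 fell (13.6% and 4.55%), against 2.05% and 1.21% of all tested features and 3.03% and 1.71% of the protein-coding ones. The median log2 fold change of the members was -0.0056 at 4 h, 0.052 at 8 h and 0.060 between them, and that of all tested features was -0.0061, -0.0046 and -0.0034.

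**Figure D1:**
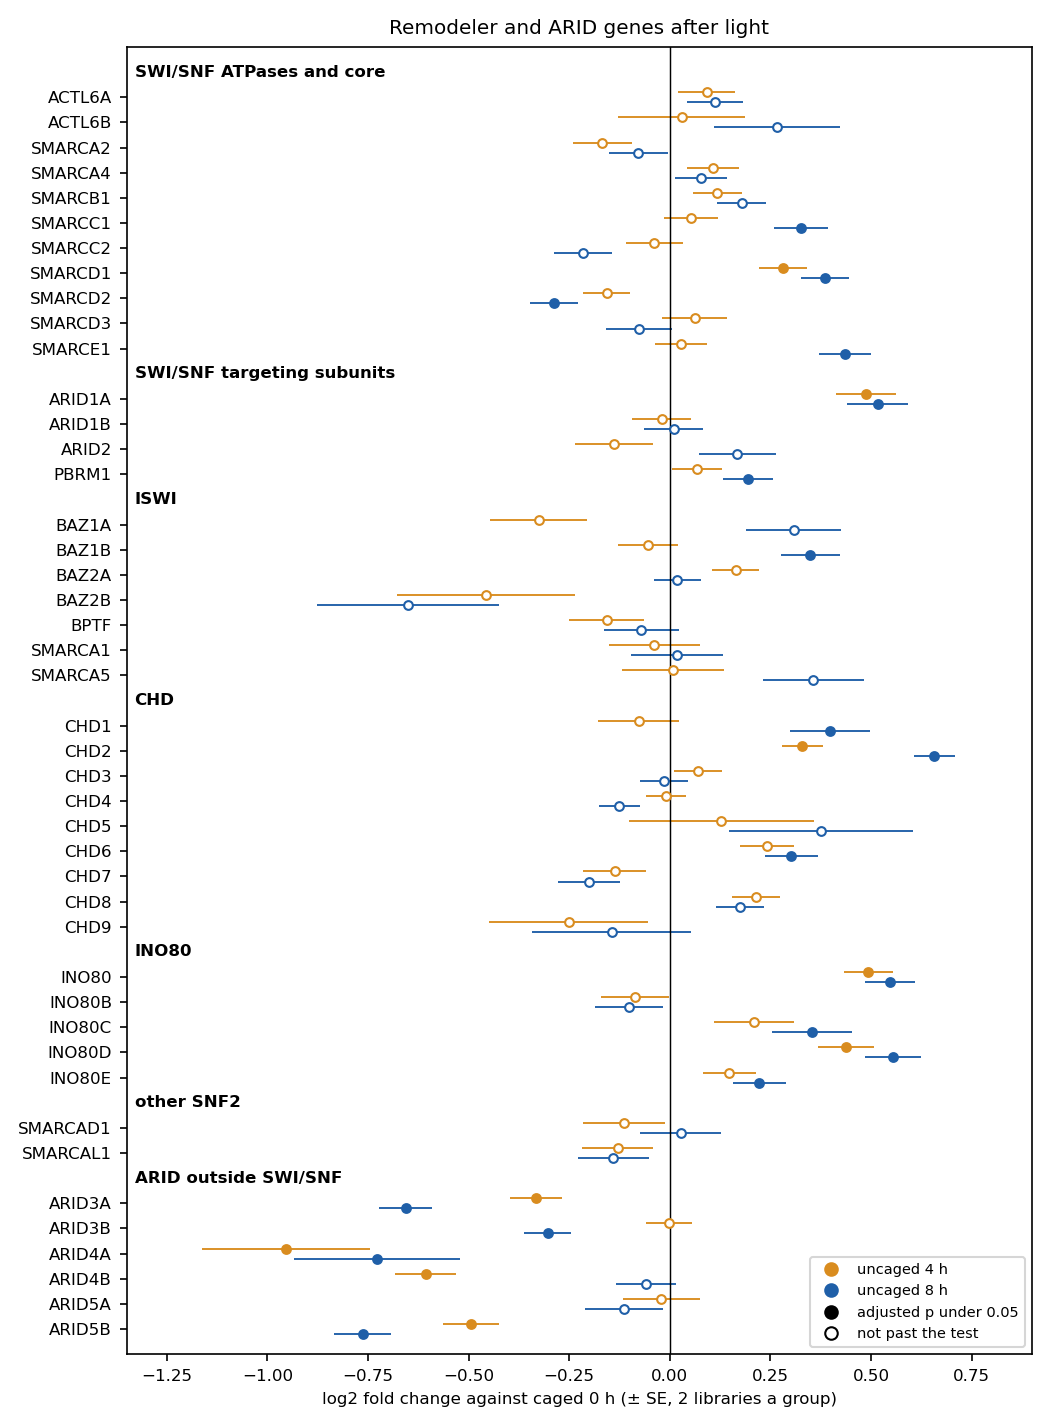
Log2 fold change of the 44 tested members, grouped by role, at 4 h and 8 h against the caged libraries, with bars of 1 standard error either way and filled points where the adjusted p was under 0.05. ARID5B and CHD2 stand at the lower and upper ends of the called changes at 8 h, at -0.76 and 0.66.

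The scaling of the libraries sets how many members count as higher or lower. With library totals in place of TMM factors, 4 members were higher and 4 lower at 4 h, against 4.19% and 5.18% of all tested features. At 8 h that scaling moved the median of all features to -0.11 and gave 9 members higher and 9 lower, where all tested features had 9.14% higher and 22.3% lower, so the share of lower members was near the background. With cyclic loess offsets the counts were 3 higher and 4 lower at 4 h (4.16% and 2.54% of all tested features) and 9 higher and 6 lower at 8 h (12.1% and 10.3%). Offsets for transcript length and GC content gave 8 higher and 4 lower at 4 h (10.6% and 4.69% of the features tested), 19 higher and 5 lower at 8 h (18.7% and 14.2%), and 7 higher and 1 lower between the times (3.29% and 1.96%).

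Counted by role, the calls were as follows. Of the 6 tested ARID genes outside SWI/SNF, 4 fell at 4 h and 4 at 8 h. Of the 5 INO80 genes, 2 rose at 4 h and 4 at 8 h, and of the 9 CHD genes 1 and 3 rose. Of the 15 SWI/SNF genes 2 and 5 rose while 1 fell at 8 h. Of the 7 ISWI genes 0 rose at 4 h and 1 at 8 h, and the 2 other SNF2 genes had no call. Of the protein-coding features of at least 10 CPM, 8.97% were called higher in the 4 h comparison. The CHD share there (11.1%) and the SWI/SNF calls were near this background. By 8 h the background was 20.6% higher with 16.4% lower, and 1 lower gene of 15 in SWI/SNF was not above the latter. Shares above the background were those of INO80 rises (40.0%, then 80.0%) and ARID falls (66.7% each time). The 8 h shares of CHD rises (33.3%) and SWI/SNF rises were also above it, but rest on 3 and 5 genes. The ISWI rises were not above it at either time (0.0%, then 14.3%). The calls by role are counts of genes, and the difference between the roles was not tested.

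The promoters of the called members with the lowest and highest log2 fold changes at 8 h are shown because CG dinucleotides, printed in capitals, are where the substrate of TET2 mostly lies; methylation was not among these measurements. Each line runs 5′ to 3′ from 250 bases before to 50 bases after a transcription start of RefSeq (GRCh38.p14). ARID5B lies at chr10:61901449-61901748 on the plus strand and is 1 of the 2 ARID5B promoters in the table, ARID4A at chr14:58298305-58298604 on the plus strand, INO80D at chr2:206086125-206086424 on the minus strand and CHD2 at chr15:92900074-92900373 on the plus strand.
ARID5B: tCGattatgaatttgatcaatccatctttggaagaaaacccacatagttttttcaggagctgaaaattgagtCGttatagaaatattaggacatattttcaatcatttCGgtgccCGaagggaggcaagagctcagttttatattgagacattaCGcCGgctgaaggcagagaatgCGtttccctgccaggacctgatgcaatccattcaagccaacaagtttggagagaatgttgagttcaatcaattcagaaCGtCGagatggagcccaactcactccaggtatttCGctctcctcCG
ARID4A: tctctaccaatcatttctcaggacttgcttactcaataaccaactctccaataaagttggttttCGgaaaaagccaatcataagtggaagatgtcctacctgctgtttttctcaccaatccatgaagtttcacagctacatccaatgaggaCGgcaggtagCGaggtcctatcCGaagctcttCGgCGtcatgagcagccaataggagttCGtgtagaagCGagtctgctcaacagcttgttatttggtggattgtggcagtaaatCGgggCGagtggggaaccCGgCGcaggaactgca
INO80D: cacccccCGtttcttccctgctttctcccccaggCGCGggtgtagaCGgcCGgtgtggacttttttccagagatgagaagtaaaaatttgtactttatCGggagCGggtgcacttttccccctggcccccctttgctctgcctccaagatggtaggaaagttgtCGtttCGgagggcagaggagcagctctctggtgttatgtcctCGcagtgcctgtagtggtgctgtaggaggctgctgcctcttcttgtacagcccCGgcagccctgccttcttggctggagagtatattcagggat
CHD2: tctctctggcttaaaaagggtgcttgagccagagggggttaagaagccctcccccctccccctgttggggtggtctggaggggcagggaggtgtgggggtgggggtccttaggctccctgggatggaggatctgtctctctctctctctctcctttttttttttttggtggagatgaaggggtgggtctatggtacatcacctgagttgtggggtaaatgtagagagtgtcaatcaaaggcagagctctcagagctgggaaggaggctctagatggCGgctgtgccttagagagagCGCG
These windows hold 11, 12, 11 and 3 CG dinucleotides. The ARID4A window also holds 6 matches to CCAAT on either strand; 6 or more occur in 43 of the 35116 promoters of the table (0.122%) and in 1 of the 55 promoters found for 34 members. The member promoters as a whole had a median of 25 CG dinucleotides against 14 in all promoters, and 78.2% against 56.4% held at least 10. All promoters here means those of 27305 genes without a filter on expression, so these contrasts and those of the motifs below were not matched for level. By the call at 8 h, the 12 promoters of 11 higher genes had a median of 30.5 (range 3 to 46), the 6 promoters of 3 lower genes 12 (5 to 48) and the 36 promoters of 19 genes without a call 22 (1 to 55), so the ranges overlapped. Searched on both strands, TATAAA was found in 3.64% of member promoters and 11.5% of all, CCAAT in 25.5% and 34.6%, and the E-box CACGTG in 3.64% and 7.26%. The element TGACGTCA was in 0 of the 55 member promoters and in 1.85% of all; these matches are a description of the letters only.

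The ARID genes outside SWI/SNF included no called rise against the caged libraries. Their median log2 fold change was -0.41 at 4 h and -0.48 at 8 h, and edgeR, DESeq2, limma-voom and an unadjusted p under 0.05 each gave 0 of 6 higher at both times. ARID5B, a coactivator that works with the histone demethylase PHF2 (ENSG00000150347.16, chromosome 10, 61901300 to 62096944), was at 49.9 and 53.6 CPM in the caged libraries, 36.2 and 37.2 CPM at 4 h and 30.2 and 30.7 CPM at 8 h. The groups did not overlap and stood in falling order. Its log2 fold change was -0.50 ± 0.070 (SE; adjusted p = 0.00603) at 4 h and then, by 8 h, -0.76 ± 0.071 (adjusted p = 0.000498), a 1.70-fold lower level; the step between the times, -0.27 ± 0.074, did not pass (adjusted p = 0.0832).

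ARID3A, a DNA-binding factor first described at immunoglobulin enhancers (ENSG00000116017.11, chromosome 19, 925781 to 975934), was at 81.0 and 80.6 CPM in the caged libraries, 62.1 and 66.2 CPM at 4 h and 52.3 and 50.1 CPM at 8 h. It fell at each time, with groups that did not overlap. The log2 fold change was -0.33 ± 0.064 (adjusted p = 0.0182) at 4 h, -0.66 ± 0.065 (adjusted p = 0.000633) at 8 h and -0.32 ± 0.067 (adjusted p = 0.0427) between them. Its relative ARID3B was at 137 and 131 CPM in the caged libraries, 132 and 135 CPM at 4 h and 112 and 105 CPM at 8 h. The fall of ARID3B was seen at 8 h, with -0.30 ± 0.059 (adjusted p = 0.00745) against the caged libraries and -0.30 ± 0.059 (adjusted p = 0.0389) against 4 h, while at 4 h the value was -0.0020 ± 0.058 (adjusted p = 0.988).

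ARID4A and ARID4B, both subunits of SIN3 histone deacetylase complexes, both fell at 4 h. ARID4B (ENSG00000054267.22, chromosome 1, 235131634 to 235328219) was at 72.7 and 74.5 CPM in the caged libraries, 48.1 and 48.6 CPM at 4 h and 66.0 and 75.2 CPM at 8 h. It fell by 0.61 ± 0.076 on the log2 scale at 4 h (adjusted p = 0.00428) and rose by 0.55 ± 0.077 from 4 h to 8 h (adjusted p = 0.0236), where it overlapped the caged level (-0.06 ± 0.074, adjusted p = 0.580). Its exons overlap those of GGPS1. ARID4A (ENSG00000032219.19, chromosome 14, 58298385 to 58373887) was at 33.1 and 38.2 CPM, then 21.4 and 15.4 CPM, then 16.7 and 26.5 CPM, so both uncaged groups were below the caged one and varied widely within themselves. Its log2 fold change was -0.95 ± 0.21 (adjusted p = 0.0282) at 4 h and then, by 8 h, -0.73 ± 0.21 (adjusted p = 0.0312).

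The step between the times was 0.23 ± 0.22 for ARID4A (adjusted p = 0.587), and whether ARID4A and ARID4B differ in it was not tested.

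ARID5A, which encodes an RNA-binding protein known to stabilise cytokine mRNAs, lay between 15.8 and 18.4 CPM in all 6 libraries (8 h log2 fold change -0.11 ± 0.096, adjusted p = 0.408). ARID3C, a further member of the ARID3 family, was not tested and lay close to the floor of 3 counts.

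**Figure D2:**
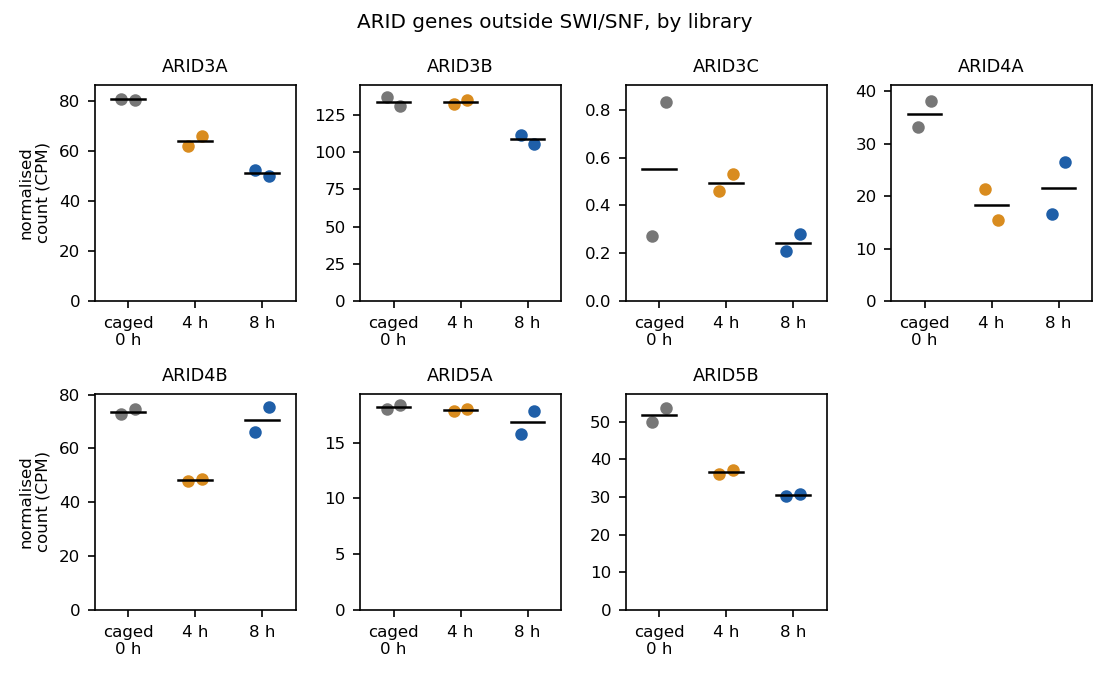
Level in CPM (vertical axis from 0) of the 7 ARID genes outside SWI/SNF in each library; points are libraries and horizontal lines group means of 2. ARID5B and ARID3A stand lower in each later group, and ARID4B is near 48 CPM at 4 h only.

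Within SWI/SNF, the genes that rose were a BAF scaffold, a BAF60 subunit, an HMG-box subunit, ARID1A and PBRM1. SMARCD1 and SMARCD2 encode alternative BAF60 subunits, of which a complex takes 1, and they moved apart. SMARCD1 (ENSG00000066117.15, chromosome 12, 50084972 to 50100712) was at 122 and 115 CPM in the caged libraries, 141 and 147 CPM at 4 h and 159 and 150 CPM at 8 h. It rose by 0.28 ± 0.060 at 4 h (adjusted p = 0.0261) and, by 8 h, 0.39 ± 0.060 (adjusted p = 0.00325) on the log2 scale, with groups that did not overlap. SMARCD2 (chromosome 17, 63832081 to 63843065) was at 135 and 127 CPM, then 120 and 115 CPM, then 109 and 106 CPM. It fell at 8 h, by 0.29 ± 0.059 on the log2 scale (adjusted p = 0.00911), and its 4 h value of -0.16 ± 0.058 did not pass (adjusted p = 0.130). The last of these alternatives, SMARCD3, lay between 63.1 and 76.6 CPM and had no call (8 h adjusted p = 0.515).

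SMARCC1 and SMARCC2 encode the paired scaffold subunits BAF155 and BAF170. SMARCC1 (chromosome 3, 47585272 to 47782106) was at 199 and 213 CPM in the caged libraries, 201 and 226 CPM at 4 h and 262 and 255 CPM at 8 h. It rose by 0.33 ± 0.067 on the log2 scale at 8 h (adjusted p = 0.00930). SMARCC2, whose exons overlap MYL6, was at 120 and 123 CPM, then 110 and 126 CPM, then 104 and 105 CPM. Both of its 8 h libraries were below the others, at -0.22 ± 0.072, without passing (adjusted p = 0.0540); with library totals or cyclic loess offsets SMARCC2 was called lower at 8 h.

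SMARCE1, which encodes the HMG-box subunit BAF57 (chromosome 17, 40624962 to 40648864), was at 98.4 and 105 CPM in the caged libraries, 103 and 104 CPM at 4 h and 132 and 143 CPM at 8 h. Its rise was seen at 8 h, by 0.44 ± 0.065 against the caged libraries (adjusted p = 0.00276) and 0.41 ± 0.065 against 4 h (adjusted p = 0.0261), and the value at 4 h was 0.03 (adjusted p = 0.822).

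The ATPases of the complex, SMARCA4 (BRG1) and SMARCA2 (BRM), had no call at either time. SMARCA4 was at 283 and 260 CPM in the caged libraries, 281 and 304 CPM at 4 h and 295 and 279 CPM at 8 h, with overlapping groups. SMARCA2 was at 35.6 and 33.9 CPM, then 30.2 and 31.7 CPM, then 32.7 and 33.2 CPM. Both uncaged groups of SMARCA2 were below the caged one by less than the test could separate (-0.17 ± 0.072, adjusted p = 0.181 at 4 h; -0.08 ± 0.072, adjusted p = 0.452 at 8 h). Per kilobase of principal transcript, the mean level of SMARCA4 over the 6 libraries was 49.5 CPM and that of SMARCA2 5.66 CPM.

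The core subunit gene SMARCB1, known as a tumour suppressor, lay between 124 and 149 CPM, with every uncaged library above both caged ones (8 h 0.18 ± 0.061, adjusted p = 0.0587). ACTL6A lay between 48.4 and 54.1 CPM, and ACTL6B, the form of this actin-like subunit typical of neurons, between 7.17 and 10.0 CPM; neither had a call.

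Among the subunits that set which SWI/SNF complex is formed, ARID1A moved and its alternative ARID1B did not pass. ARID1A (ENSG00000117713.20, chromosome 1, 26693236 to 26782110), the large subunit of canonical BAF, was at 133 and 117 CPM in the caged libraries, 166 and 184 CPM at 4 h and 181 and 176 CPM at 8 h. All 4 uncaged libraries stood above both caged ones and overlapped each other. Its log2 fold change was 0.49 ± 0.075 (adjusted p = 0.00836) at 4 h and then, by 8 h, 0.52 ± 0.075 (adjusted p = 0.00257), a 1.43-fold higher level. ARID1B was at 82.9 and 75.5 CPM, then 76.4 and 79.8 CPM, then 83.0 and 76.5 CPM, and its groups overlapped at both times (8 h log2 fold change 0.01, adjusted p = 0.933).

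ARID2 and PBRM1 belong to the PBAF form of the complex. PBRM1, whose exons overlap UQCC5, was at 95.9 and 105 CPM in the caged libraries, 105 and 105 CPM at 4 h and 114 and 115 CPM at 8 h, and rose by 0.19 ± 0.062 at 8 h (adjusted p = 0.0477). ARID2 lay between 37.5 and 53.8 CPM, with its 2 lowest libraries at 4 h and its 2 highest at 8 h, and had no call (adjusted p = 0.112 between the times).

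Of the 5 INO80 genes, 4 rose at 8 h by edgeR; DESeq2 and cyclic loess offsets called 3 of them higher, and library totals 2. INO80 itself, the ATPase (ENSG00000128908.17, chromosome 15, 40978880 to 41116354), was at 49.0 and 48.5 CPM in the caged libraries, 69.4 and 67.9 CPM at 4 h and 70.0 and 72.4 CPM at 8 h. The level was already high at 4 h, with 0.49 ± 0.062 (adjusted p = 0.00419), and was 0.55 ± 0.062 (adjusted p = 0.00101) at 8 h, a 1.46-fold higher level. The step between the times was 0.05 (adjusted p = 0.655).

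INO80D, an accessory subunit gene (chromosome 2, 205993721 to 206086303), was at 36.6 and 38.3 CPM in the caged libraries, 49.1 and 52.3 CPM at 4 h and 55.6 and 54.4 CPM at 8 h. Its course was like that of INO80, with 0.44 ± 0.070 (adjusted p = 0.00917) at 4 h and then, by 8 h, 0.56 ± 0.069 (adjusted p = 0.00147). INO80C, whose protein pairs with an actin-related subunit, was at 19.5 and 16.6 CPM, then 21.2 and 20.6 CPM, then 22.8 and 23.4 CPM, and rose at 8 h (0.35 ± 0.099, adjusted p = 0.0301). INO80E, a subunit gene of animal complexes whose exons overlap DOC2A and HIRIP3, was at 133 and 125 CPM, then 139 and 148 CPM, then 157 and 144 CPM, and rose by 0.22 ± 0.066 at 8 h (adjusted p = 0.0359). The exception, INO80B, lay between 27.5 and 31.9 CPM with overlapping groups (8 h log2 fold change -0.10 ± 0.084, adjusted p = 0.403), and it shares exons with the readthrough gene INO80B-WBP1.

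**Figure D3:**
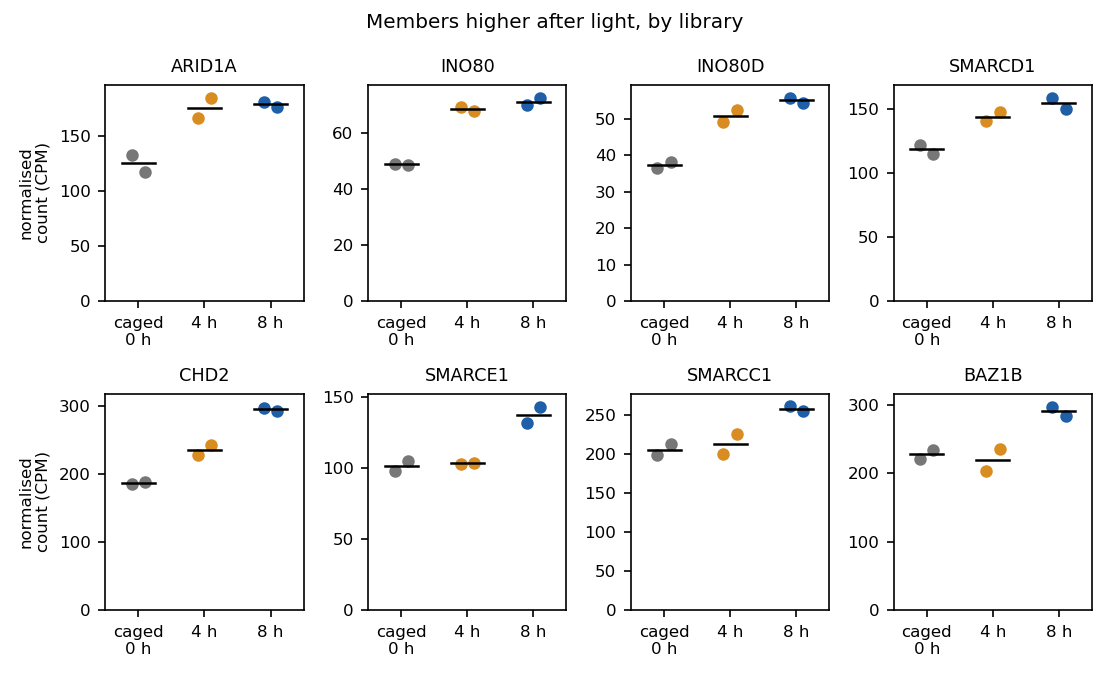
Level in CPM (vertical axis from 0) of 8 members that rose, in each library; points are libraries and horizontal lines group means of 2. ARID1A, INO80 and INO80D are high from 4 h on, CHD2 stands higher in each later group, and SMARCE1 and BAZ1B are high at 8 h only.

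In the CHD family, CHD2 had the largest called rise of all 44 tested members at 8 h. CHD2 (ENSG00000173575.21, chromosome 15, 92900189 to 93028005), a remodeler tied to active transcription, was at 186 and 189 CPM in the caged libraries, 228 and 243 CPM at 4 h and 298 and 294 CPM at 8 h. The groups stood in rising order without overlap. The log2 fold change was 0.33 ± 0.052 (adjusted p = 0.00892) at 4 h, 0.66 ± 0.052 (adjusted p = 0.000272) at 8 h and 0.33 ± 0.051 (adjusted p = 0.0257) between the times, and the 8 h level was 1.58-fold higher.

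CHD1, the closest relative of CHD2 and a reader of methylated histone H3 lysine at active genes, followed only late. It was at 61.1 and 65.7 CPM in the caged libraries, 58.1 and 62.0 CPM at 4 h and 74.9 and 92.1 CPM at 8 h. Its 8 h libraries were above all others and far apart from each other, and it rose by 0.40 ± 0.099 against the caged libraries (adjusted p = 0.0197) and 0.47 ± 0.10 against 4 h (adjusted p = 0.0457).

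The NuRD ATPase genes CHD3 and CHD4 had no call. CHD4 was at 282 and 268 CPM in the caged libraries, 269 and 278 CPM at 4 h and 249 and 255 CPM at 8 h, with both 8 h libraries lowest (-0.13 ± 0.051, adjusted p = 0.0981); with library totals or cyclic loess offsets it was called lower at 8 h. CHD3 was at 109 and 106 CPM, then 117 and 109 CPM, then 106 and 106 CPM, with overlapping groups at both times. The mean level per kilobase of principal transcript was 40.6 CPM for CHD4 and 14.8 CPM for CHD3.

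Of CHD6 to CHD9, which share the domain layout of CHD7, 1 rose. CHD6 was at 62.2 and 63.0 CPM in the caged libraries, 72.1 and 76.0 CPM at 4 h and 74.5 and 79.9 CPM at 8 h. It rose at 8 h (0.30 ± 0.066, adjusted p = 0.0122), and its 4 h value, 0.24 ± 0.066, did not pass (adjusted p = 0.0554). CHD8, a gene often mutated in autism, lay between 224 and 270 CPM with all 4 uncaged libraries above the caged ones (0.17 ± 0.059 at 8 h, adjusted p = 0.0583). CHD7, the gene of CHARGE syndrome, had all 4 uncaged libraries below the caged ones, between 66.6 and 79.9 CPM in all (-0.20 ± 0.078 at 8 h, adjusted p = 0.0868). CHD9 varied from 45.8 to 75.2 CPM with overlapping groups, and CHD5, mainly a neuronal gene, lay between 2.89 and 4.55 CPM; neither had a call.

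Among the ISWI genes, the changes came between 4 h and 8 h. By edgeR none of the 7 was called at 4 h, where 1 was higher and 1 lower at an unadjusted p under 0.05 and DESeq2 and limma-voom called 0. BAZ1B, the WSTF subunit that phosphorylates histone H2A.X (chromosome 7, 73440398 to 73522278), was at 222 and 235 CPM in the caged libraries, 204 and 236 CPM at 4 h and 297 and 285 CPM at 8 h. It rose by 0.35 ± 0.073 against the caged libraries (adjusted p = 0.0102) and 0.40 ± 0.073 against 4 h (adjusted p = 0.0348). BAZ1A, the ACF1 subunit of the spacing factor ACF, was at 86.9 and 96.5 CPM, then 64.2 and 82.2 CPM, then 105 and 122 CPM. Its 4 h libraries were the lowest and its 8 h libraries the highest, and it was called between these times (0.63 ± 0.12, adjusted p = 0.0371) but not against the caged ones, where the adjusted p was 0.129 for 4 h and 0.0849 for 8 h.

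The ISWI ATPase genes SMARCA5 (SNF2H) and SMARCA1 (SNF2L) had no call. SMARCA5 was at 120 and 158 CPM in the caged libraries, 141 and 139 CPM at 4 h and 162 and 195 CPM at 8 h, so that the 2 caged libraries differed by more than caged replicate 2 and the lower 8 h library did. SMARCA1 was at 70.6 and 78.0 CPM, then 77.6 and 67.0 CPM, then 67.1 and 83.4 CPM, with overlapping groups. BAZ2A, part of the nucleolar complex NoRC, lay between 187 and 220 CPM, and its relative BAZ2B between 6.36 and 12.1 CPM, with all uncaged libraries of BAZ2B below the caged ones (8 h -0.65 ± 0.23, adjusted p = 0.0627). BPTF, the large subunit of NURF, lay between 72.2 and 87.4 CPM without a call. The remaining SNF2 genes, SMARCAD1, which acts in DNA end resection, and SMARCAL1, which restores stalled replication forks, lay between 59.6 and 77.3 CPM and between 35.4 and 43.1 CPM and had no call in any comparison; at an unadjusted p under 0.05, and by DESeq2 and limma-voom, the count was also 0.

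**Figure D4:**
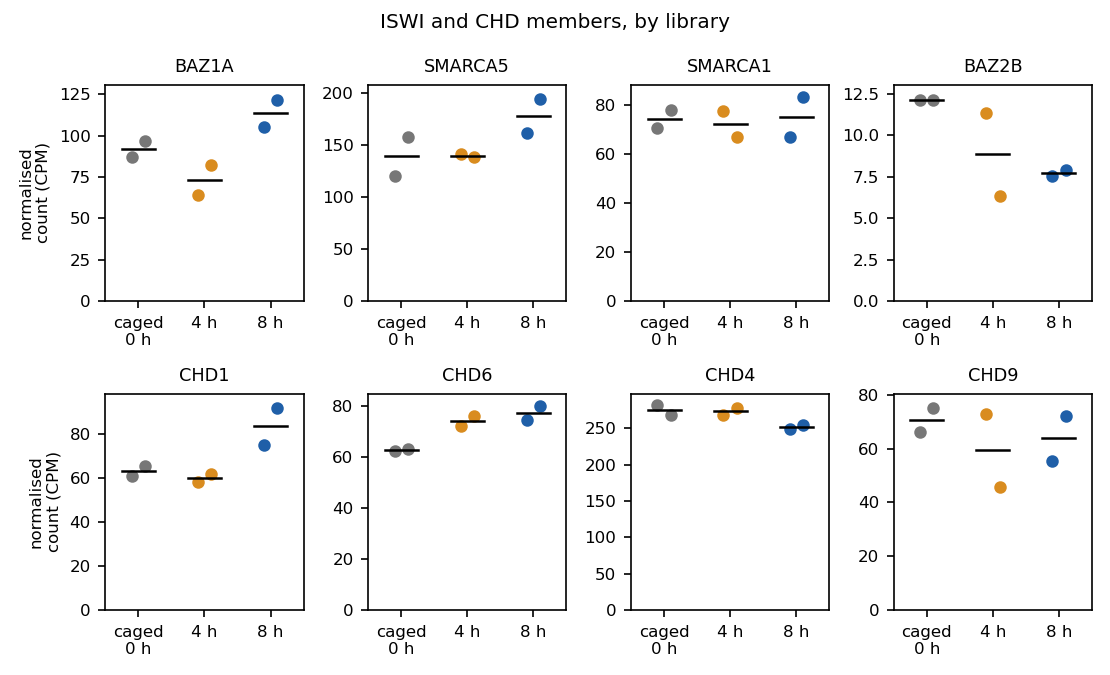
Level in CPM (vertical axis from 0) of 4 ISWI and 4 CHD genes in each library; points are libraries and horizontal lines group means of 2. BAZ1A is lowest at 4 h and highest at 8 h, CHD1 is high at 8 h only, and CHD9 and SMARCA1 vary as much within as between groups.

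Pairs of paralogues were set against each other as ratios of their CPM within a library, scaled so that the caged mean is 1. SMARCD1 over SMARCD2 was 1.30 and 1.41 at 4 h and 1.61 and 1.58 at 8 h (mean 1.59 ± 0.0255 SD, n = 2). SMARCC1 over SMARCC2 was 1.07 and 1.06 at 4 h and 1.49 and 1.43 at 8 h. ARID1A over ARID1B was 1.38 and 1.46 at 4 h and 1.38 and 1.46 at 8 h. For each of these pairs all 4 uncaged libraries stood above both caged ones. For SMARCD1 over SMARCD2 and SMARCC1 over SMARCC2 the 8 h libraries were also above those at 4 h.

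The ratio of SMARCA4 to SMARCA2 was 1.19 and 1.23 at 4 h and 1.15 and 1.08 at 8 h. CHD4 over CHD3 lay between 0.901 and 0.996 in the uncaged libraries, and SMARCA5 over SMARCA1 at 0.975 and 1.11 at 4 h and 1.29 and 1.25 at 8 h. CHD2 over CHD1 was 1.33 and 1.32 at 4 h and 1.34 and 1.08 at 8 h, so a ratio below those at 4 h was seen in 8 h replicate 2 only. BAZ1A over BAZ1B was 0.785 and 0.868 at 4 h and 0.882 and 1.07 at 8 h. ARID4B over ARID4A was 1.08 and 1.53 at 4 h and 1.91 and 1.37 at 8 h, so all 4 uncaged libraries stood above the caged ones (1.06 and 0.941) while the 4 h and 8 h groups overlapped. With 2 libraries against 2, the smallest two-sided exact permutation p is 0.333, so the ratios are given without a test; the pairs SMARCD1 with SMARCD2, BAZ1A with BAZ1B and ARID4B with ARID4A were chosen after their values were seen.

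**Figure D5:**
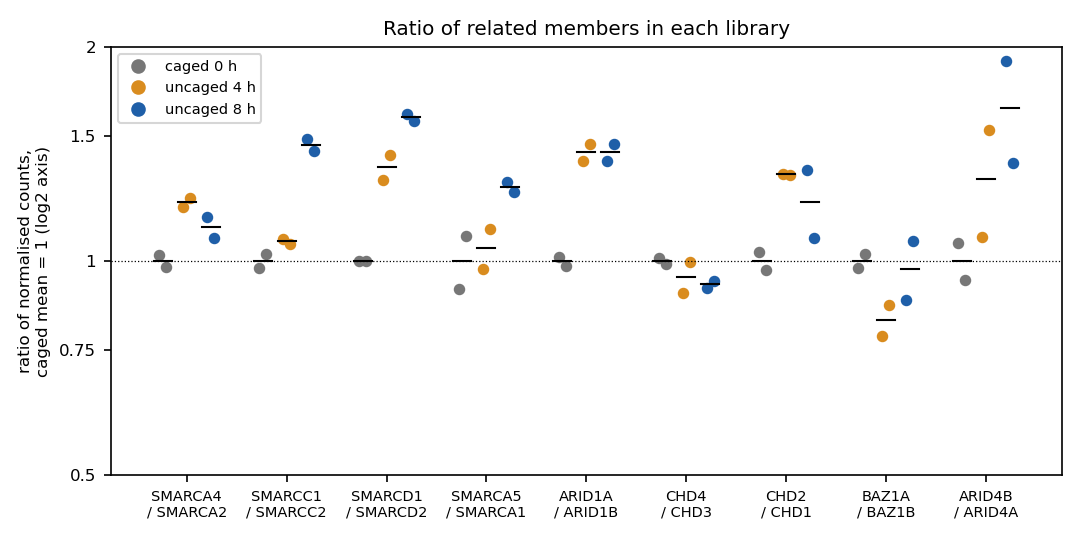
Ratio of paralogue levels in each library, with the caged mean set to 1 (log2 axis); points are libraries. SMARCD1 over SMARCD2 and SMARCC1 over SMARCC2 reach 1.59 and 1.46 on average at 8 h. CHD4 over CHD3 is at 0.917 and 0.937 at 8 h, slightly below both caged libraries.

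A further 72 genes in 6 lists, all of them tested, encode partner subunits of the members' complexes or other ATPases of the SNF2 family. At 4 h, 8 of these rose (11.1%, against 6.16% of all tested features and 8.97% of the protein-coding ones of at least 10 CPM). At 8 h, 19 rose and 3 fell (26.4% and 4.17%, against 14.9% and 13.2% of all tested features and 20.6% and 16.4% of the protein-coding ones). Their median log2 fold change at 8 h was 0.12. At 4 h none was called lower by edgeR, DESeq2 or limma-voom, and 6 were lower at an unadjusted p under 0.05. These counts rest on the scaling: at 8 h library totals gave 11 higher and 15 lower, where all tested features had 9.14% and 22.3%, and cyclic loess offsets 9 higher and 4 lower (12.1% and 10.3%). At 4 h library totals gave 5 higher and 1 lower (4.19% and 5.18%).

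Of the 14 SWI/SNF partners, 4 rose at 8 h. ACTB, the actin subunit of these complexes and of the cytoskeleton, rose by 0.62 ± 0.052 on the log2 scale (adjusted p = 0.000337), BRD7, a PBAF subunit, by 0.30 ± 0.062 (adjusted p = 0.0102) and BCL7B by 0.33 ± 0.080 (adjusted p = 0.0172). Of the 7 ISWI partners, 4 rose and 1 fell, among them the histone-fold genes POLE3 (0.46 ± 0.065, adjusted p = 0.00223) and CHRAC1 (0.37 ± 0.067, adjusted p = 0.00587) and HMGXB4 (0.49 ± 0.069, adjusted p = 0.00226). NuRD gave 3 higher of 10. Among them were the scaffold MTA2 at 0.29 ± 0.047 (adjusted p = 0.00373) and the methyl-CpG-binding-domain gene MBD3 at 0.48 ± 0.079 (adjusted p = 0.00391). Of the protein-coding features of at least 10 CPM, 20.6% were called higher at 8 h, and these rises rest on 3 or 4 genes a list. Cyclic loess offsets gave 2, 3 and 1 higher and 0, 0 and 2 lower in the SWI/SNF, ISWI and NuRD lists. Library totals gave 2, 3 and 2 higher and 4, 2 and 1 lower. With offsets for length and GC, 6, 4 and 6 were higher.

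The 17 partners in INO80, SRCAP and TIP60-p400 gave 2 higher at 8 h, a share of 11.8% that is not above the 14.9% of all tested features. SRCAP, the ATPase that deposits H2A.Z, was at 181 and 116 CPM in the caged libraries, 302 and 312 CPM at 4 h and 229 and 264 CPM at 8 h, a rise of 1.04 ± 0.17 at 4 h (adjusted p = 0.0102) and, by 8 h, 0.73 ± 0.17 (adjusted p = 0.0156). YY1, the DNA-binding partner of INO80, rose by 0.33 ± 0.061 at 8 h (adjusted p = 0.00629). Of 13 other SNF2-family ATPase genes, 3 rose at 8 h. That share, 23.1%, was near the 20.6% of the protein-coding features of at least 10 CPM. Among them ERCC6, the transcription-coupled repair gene, was at 16.1 and 19.2 CPM, then 25.1 and 24.4 CPM, then 31.5 and 31.4 CPM (8 h 0.83 ± 0.098, adjusted p = 0.00117).

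The SIN3 and JARID list, which holds the partners of ARID4A and ARID4B and the other ARID-domain genes, gave 3 higher and 2 lower of 11 at 8 h. These shares were 27.3% and 18.2%, against 20.6% and 16.4% of the protein-coding features of at least 10 CPM. JARID2, an ARID-domain gene of Polycomb complex 2, was at 39.5 and 37.4 CPM in the caged libraries, 31.4 and 32.1 CPM at 4 h and 25.2 and 23.4 CPM at 8 h. It fell by 0.66 ± 0.077 on the log2 scale at 8 h (adjusted p = 0.00110), with groups in falling order as for ARID3A and ARID5B. The other ARID-domain genes of this list went the other way. At 8 h KDM5A (0.22 ± 0.070, adjusted p = 0.0466) and KDM5B (0.16 ± 0.050, adjusted p = 0.0450) were called higher. KDM5C was called higher at 4 h (0.34 ± 0.062, adjusted p = 0.0143) and had no call at 8 h (0.18 ± 0.062, adjusted p = 0.0597). SAP30L, a SIN3 subunit gene, fell by 0.30 on the log2 scale, and BRMS1, another, rose by 0.26 ± 0.060 (adjusted p = 0.0154). Under cyclic loess offsets MTA2, YY1, SRCAP, BCL7B, SAP30L, KDM5A and KDM5B were no longer called at 8 h, nor KDM5C at 4 h. With 1 library left out, the 8 h value ran from 0.13 to 0.31 for KDM5A and from 0.13 to 0.18 for KDM5B. The 8 h call of KDM5B ended whichever of the 6 libraries was left out, and that of KDM5A without any library but caged replicate 2. The 4 h call of KDM5C ended without caged replicate 2 or either 4 h library, with values from 0.28 to 0.41. Leaving out 1 library ended the 8 h calls of BRD7 (without caged replicate 1 or 8 h replicate 2; highest adjusted p = 0.0699), BCL7B (without either caged library or 8 h replicate 1; 0.0965), SRCAP (without 8 h replicate 2; 0.0749), and SAP30L and BRMS1 (without any caged or 8 h library; 0.116 and 0.0778), and the 4 h call of SRCAP (without 4 h replicate 2; 0.0778). The log2 fold change of SRCAP moved with the caged libraries: without replicate 1 of that group it was 1.40 at 4 h and 1.08 at 8 h, and without replicate 2 it was 0.76 and 0.44. That of BCL7B at 8 h was 0.21 without 8 h replicate 1.

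Many of the members are long genes expressed at a moderate level. Their median span was 76.3 kb against 33.8 kb for the 13968 tested protein-coding genes, and 36.4% against 20.6% spanned over 100 kb. Their median level was 73.5 CPM against 30.8 CPM. Across genes, which are not independent replicates and share the same 6 libraries, Spearman's rho between span and log2 fold change at 8 h was -0.0171 in the members and -0.156 in the tested protein-coding genes. At 4 h rho was -0.245 and -0.0735, and between the times 0.202 and -0.156, so rho was lower in the members than in the tested protein-coding genes at 4 h and higher in the other comparisons. The 16 members over 100 kb had a median log2 fold change of 0.044 at 8 h, against -0.15 for all tested protein-coding genes of that length; at 4 h the medians were -0.14 and -0.053, and between the times 0.088 and -0.097.

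The calls differed in how far they rest on 1 library. Held with each of the 6 libraries left out in turn were INO80 and ARID4B at 4 h, and ARID1A, ARID3A, ARID5B, CHD2, INO80, INO80D, SMARCD1 and SMARCE1 at 8 h. At 4 h, ARID1A and ARID5B lost the call without caged replicate 2 or 4 h replicate 2 (highest adjusted p = 0.0845 and 0.0536), CHD2 and INO80D without those libraries or caged replicate 1 (0.0933 and 0.0902), and ARID3A, ARID4A and SMARCD1 without any caged or 4 h library (0.116, 0.171 and 0.186). At 8 h, ARID3B, SMARCC1 and SMARCD2 lost it without caged replicate 1 (0.0506, 0.0671 and 0.0605), BAZ1B without caged replicate 1 or 8 h replicate 1 (0.0704), CHD1 and CHD6 without either caged library or 8 h replicate 2 (0.115 and 0.0752), and ARID4A without either caged library or 8 h replicate 1 (0.143). The 8 h log2 fold change of ARID4A was -0.44 without 8 h replicate 1 and -1.10 without 8 h replicate 2, and that of CHD1 was 0.24 without 8 h replicate 2. INO80C kept its 8 h call only without caged replicate 1, INO80E only without 8 h replicate 2 and PBRM1 only without caged replicate 2 (highest adjusted p = 0.169, 0.199 and 0.251), and the log2 fold change of PBRM1 was 0.13 without caged replicate 1.

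Cyclic loess offsets also ended the calls of CHD2 and SMARCD1 at 4 h and of BAZ1B, SMARCC1, INO80E, PBRM1 and ARID4A at 8 h, and library totals those of SMARCD1 at 4 h and of INO80C, INO80E, PBRM1 and CHD6 at 8 h.

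None of the 8 calls between 4 h and 8 h held with each library left out, although no value changed sign. ARID4B and SMARCE1 lost the call without either 4 h library or 8 h replicate 2 (highest adjusted p = 0.148 and 0.154), CHD2 without any 4 h or 8 h library (0.160) and CHD1 without any library but 8 h replicate 1 (0.205). ARID3A, ARID3B, BAZ1A and BAZ1B lost it without any of the 6 (highest adjusted p = 0.210, 0.189, 0.170 and 0.166). The log2 values stayed between 0.45 and 0.64 for ARID4B, between 0.35 and 0.47 for SMARCE1, between 0.46 and 0.83 for BAZ1A and between 0.28 and 0.38 for CHD2.

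Reads shared between features bear on some members. The estimates of 17 members were whole in all 6 libraries (within 0.01) and those of 17 others were whole in none, and 26 members have exons that overlap another gene, CHD2, INO80, INO80D, ARID1A and SMARCE1 among them. No source used here gives the strand setting of the counting, so sense and antisense reads at these genes cannot be told apart.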

How the data were processed

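RNA was measured in 6 libraries of HEK293T cells, 2 in each of 3 groups taken from the labels. The authors deposited estimated counts per gene without normalisation, which Salmon 1.1.0 made, per the submitters' processing notes. Those notes also name GRCh38, DESeq2 and R 3.6.1. For the annotation and the strand setting, nothing is given in the sources used here. Spans and overlaps come from GENCODE 29 (GRCh38).

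Estimates were rounded and 5 plasmid rows left out of library sizes and tests. In R 4.3.3, filterByExpr removed low features (minimum count 10, minimum total 15; 17449 tested), TMM set the scale, and edgeR 4.0.16's quasi-likelihood test was fitted over all 6 libraries without covariates, with Benjamini-Hochberg adjustment and a threshold of 0.05. The SE is the log2 fold change divided by the square root of F. CPM uses the TMM-scaled totals. The steps were tested on simulated data. Alternatives were other scalings, filters and tools (DESeq2 1.42.0, limma 3.58.1), a replicate block, and each library left out. Replicates were not copies: chi-square divided by its degrees of freedom was 3.80, 3.44 and 4.00 in the 3 groups, above sampling noise.

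Every member is accounted for. Library values are given for members called in any comparison and for set paralogue pairs. At most 3 called genes of smallest p at 8 h are named per partner list. KDM5A, KDM5B and KDM5C were added to these as the other ARID-domain genes of their list. The members, lists and tests were chosen with earlier results of these data known. The background over protein-coding features of at least 10 CPM was added after the data were seen.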

Additional observations from a re-analysis of the deposited data

Results flagged for a closer look

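For 8 members the 4 h and 8 h groups differed by edgeR's test of that difference. On the log2 scale the change from 4 h to 8 h was -0.32 for ARID3A, -0.30 for ARID3B, 0.55 for ARID4B, 0.47 for CHD1, 0.33 for CHD2, 0.63 for BAZ1A, 0.40 for BAZ1B and 0.41 for SMARCE1. ARID4B is the member that fell at 4 h and rose again by 8 h.

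Plasmid sequences, which lie outside the comparisons of genes, took 15.1% and 15.0% of all counts in the 4 h libraries and 15.5% and 14.8% in the 8 h libraries, above the 11.5% to 11.8% of the caged ones. Their part in the gene results was not tested.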

How the results depend on the processing

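The number of called members depended on the processing. At 4 h, where 5 members were higher and 4 lower, cyclic loess offsets gave 3 higher and offsets for length and GC gave 8 higher. A test against a 1.2-fold change gave 1 higher and 1 lower, where 155 and 62 of all 17449 features were called. The features with whole estimates only, which hold 16 members, gave 2 higher and 2 lower, where 490 and 375 of all 5825 were called. At 8 h, where 13 were higher and 5 lower, library totals gave 9 lower and offsets for length and GC 19 higher. The test against 1.2-fold gave 5 higher and 2 lower, where 788 and 619 of all 17449 features were called. Whole estimates only gave 5 higher and 3 lower, where 1037 and 1006 of all 5825 were called. Between the times, where 6 were higher and 2 lower, no filter and the 1.2-fold test gave 0 in both directions. Of all features they called 48 and 5 of 37125, and 9 and 0 of 17449. Whole estimates only gave 3 higher and 0 lower (all features: 284 and 165 of 5825), and the replicate block 0 lower (42 of 17449). Length and GC offsets and the fit of only the 4 compared libraries gave 1 lower each (338 of 17255 and 137 of 16885). At an unadjusted p under 0.05, 9 members were higher and 7 lower with no filter, and 6 and 0 with the 1.2-fold test. By the same measure 6 were lower with the block and 1 lower with whole estimates. DESeq2 called 7 members higher and 2 lower and limma-voom 6 and 2, where they called 592 and 180, and 346 and 172, of all 17449 features. With each library left out in turn, the counts ran from 1 to 5 higher and 1 to 4 lower at 4 h, from 7 to 11 and 2 to 7 at 8 h, and from 0 to 3 and 0 to 0 between the times, where 3 to 6 were lower at an unadjusted p under 0.05.

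No called member changed sign under any of these settings. Besides the 1.2-fold test, settings other than leaving out a library ended the calls of SMARCD1, CHD2 and ARID4A at 4 h and of BAZ1B, SMARCC1, INO80C, INO80E, PBRM1, CHD1, CHD6 and ARID4A at 8 h; the cause was not tested. Among the partner genes, 2 that were called higher at 8 h went to the other sign with cyclic loess offsets, KDM5B at -0.058 and RBBP4 at -0.00085 on the log2 scale. For all features, leaving out a library gave 165 to 943 higher and 61 to 672 lower at 4 h, 1373 to 2246 and 902 to 2082 at 8 h, and 6 to 197 and 0 to 77 between the times.

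Whether equal replicate numbers mark a pair or a batch is not given in the labels. Replicate-1 deviations correlated by 0.00081, 0.047 and -0.050 between the groups, and with 2 libraries a group this cannot decide it. A fit with the replicate block gave 5 members higher and 4 lower at 4 h, 14 and 4 at 8 h and 5 and 0 between the times. Of all 17449 tested features it called 709 and 330, 2376 and 2031, and 151 and 42. With 2 libraries a group and 3 residual degrees of freedom, small changes were not detectable, and a miss does not show that a level was unchanged.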

Other observations

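CHASERR, a long non-coding RNA gene that ends just upstream of CHD2 on the same strand (chromosome 15, 92882707 to 92899701) and is known to restrain CHD2, was looked at after the values of CHD2 were seen. It was at 161 and 176 CPM in the caged libraries, 180 and 181 CPM at 4 h and 236 and 232 CPM at 8 h. The log2 fold change was 0.09 ± 0.057 at 4 h (adjusted p = 0.342) and 0.47 ± 0.057 at 8 h (adjusted p = 0.00128), and 0.38 ± 0.057 between the times (adjusted p = 0.0250). CHD2 and CHASERR were thus both higher at 8 h, and at 4 h the call was made for CHD2; whether the genes differ there was not tested. The estimates of CHASERR were whole in none of the 6 libraries, so it shares reads with another feature.

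The readthrough gene INO80B-WBP1, which shares exons with INO80B, varied from 14.6 to 26.2 CPM over the libraries, against 27.5 to 31.9 CPM for INO80B.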
